A study of Mus musculus with 15 samples.

Results

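A set of 10 transcription factor genes of the somite was followed through 15 RNA sequencing libraries from the mouse aorta-gonad-mesonephros (AGM) region. They are Pax1, Pax9, Nkx3-2, Meox1, Meox2, Foxc2, Tcf15, Pax3, Myf5 and Myog, taken by gene name from the deposited table, where each name matched 1 row. They are 10 of the 28876 genes listed, and all 10 were among the 18553 genes with at least 0.5 RPM (reads-per-million) in at least 1 library, which were tested. Not every member reached that level in every group. Nkx3-2 stayed below 0.5 RPM in all 3 libraries of the urogenital ridges and Myf5 in all 3 of the E10.5 ventral aorta, while E9.5 ventral aorta replicate 2 was below it for Myf5 and Myog.

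Somites are blocks of paraxial mesoderm that form in pairs beside the neural tube. The ventral part of each somite becomes the sclerotome, the source of vertebrae and ribs, under Hedgehog signals from the notochord and floor plate, and the dorsal part becomes the dermomyotome, which gives rise to the myotome, to dermis and to migrating muscle precursors. Pax1, Pax9 and Nkx3-2 are textbook regulators of sclerotome, Meox1, Meox2, Foxc2 and Tcf15 act in the early somite and its mesenchyme, Pax3 marks the dermomyotome, and Myf5 and Myog are muscle regulatory factors that act early and late in muscle cell commitment.

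The libraries come from C57BL/6 embryos, a strain all groups share. At stage E9.5 (embryonic day) the AGM region had been divided into a dorsal (E9 AoD) and a ventral domain (E9 AoV) of the dorsal aorta with its surroundings. At E10.5 a dorsal (E10 AoD) and a ventral domain (E10 AoV) were taken, and the urogenital ridges (E10 UGR) separately. Each of the 5 groups has 3 libraries from pools of many embryos collected in separate experiments, with no mutant, transgene or treatment. The tissue was dissected and not sorted, so that in these bulk libraries fewer cells of a type and less RNA per cell cannot be told apart.

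Depth, worked out from the steps between low values, was between 33.8 and 48.6 megareads (M) assigned to genes in a library, and 3 reads corresponded to between 0.0617 and 0.0889 RPM. Values below are RPM for replicates 1, 2 and 3 in turn. Differences are log2 fold changes on log2(RPM + 0.1) from limma, with standard error (SE) and an adjusted p (Benjamini-Hochberg over all tested genes). A gene was called where the adjusted p was under 0.05 and the difference reached 2-fold (1 on the log2 scale), and rose and fell are used only of called genes. The median log2 fold change of all tested genes lay between -0.05 and 0.02 in every comparison.

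**Figure D1:**
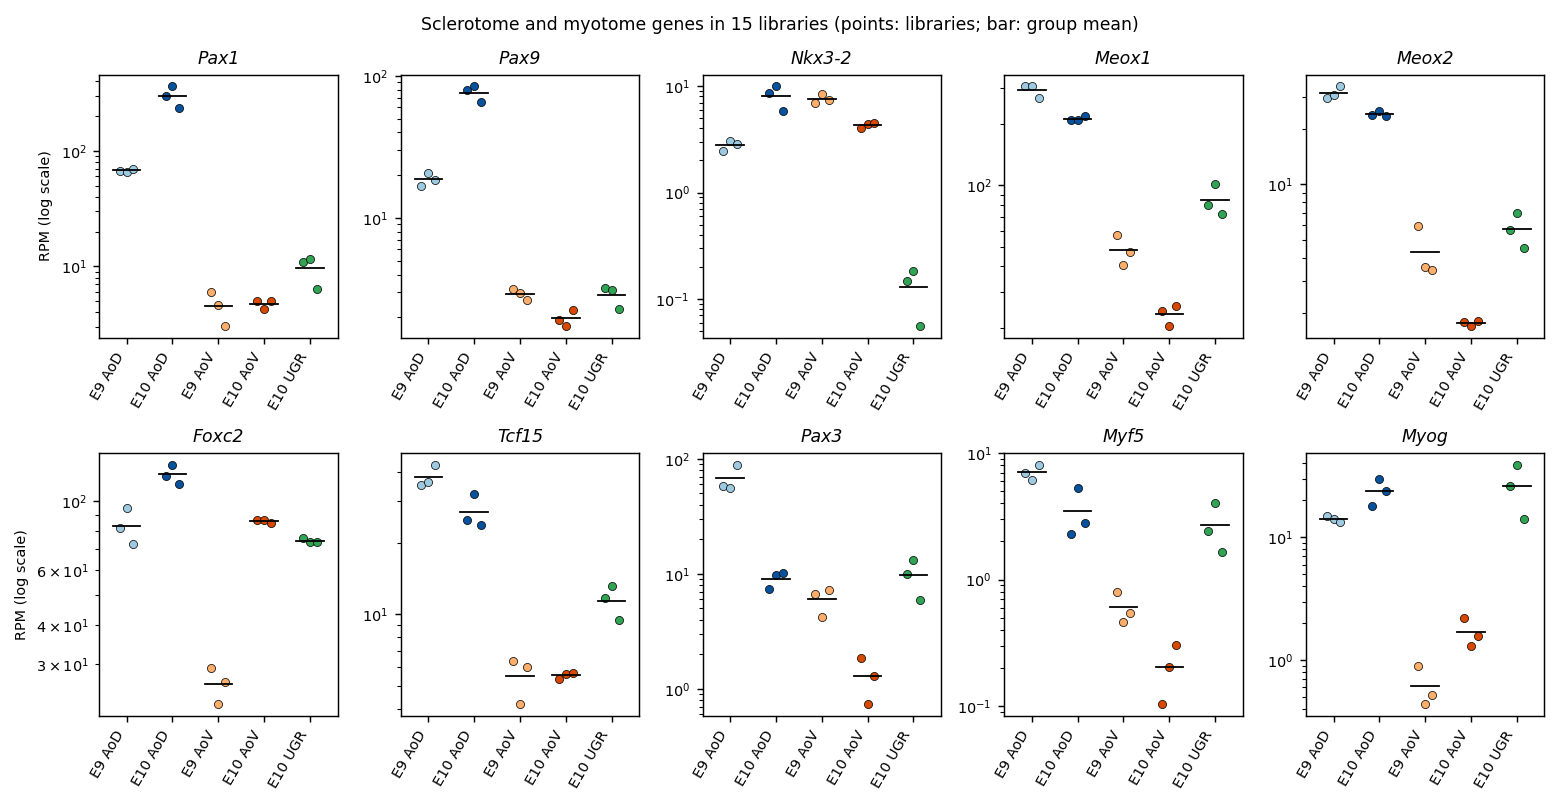
RPM on a log scale (vertical axis) of each of the 10 genes in the 15 libraries, by group (horizontal axis), with points for libraries and bars for group means of 3. Pax1 and Pax9 peaked in E10 AoD, Pax3 and Myf5 in E9 AoD, and Nkx3-2 was at most 0.185 RPM in E10 UGR.

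Per length, the members spanned a wide range within the dorsal domains. Divided by the length of all annotated exons, which allows genes to be compared with each other, E10 AoD held Meox1 at 95.5 ± 2.85 RPKM (reads per kilobase of exon in each megaread; SD, n = 3), followed by Pax1 at 66.5 ± 13.8 RPKM. Foxc2 was at 44.8 ± 3.14 RPKM and Tcf15 at 27.6 ± 4.73 RPKM. Myog at 16.2 ± 4.02 RPKM and Pax9 at 15.1 ± 1.88 RPKM overlapped within their spread. The lowest per length were Meox2 at 5.25 ± 0.152 RPKM, Nkx3-2 at 4.08 ± 1.04 RPKM, Myf5 at 1.68 ± 0.779 RPKM and Pax3 at 1.47 ± 0.242 RPKM, of which the last pair overlapped. In E9 AoD the order differed, with Meox1 at 132 ± 9.33 RPKM, Tcf15 at 38.7 ± 4.24 RPKM, Foxc2 at 30.6 ± 4.12 RPKM, Pax1 at 15.0 ± 0.503 RPKM and Pax3 at 10.9 ± 2.97 RPKM.

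Pax1 (ENSMUSG00000037034, chromosome 2, 147187661 to 147219031, plus strand of NCBIM37) and Pax9 (ENSMUSG00000001497, chromosome 12, 57792754 to 57813809, plus strand) encode closely related paired-box factors of the sclerotome that act together in the vertebral bodies and discs. The RefSeq promoter windows of both, from 250 bases before to 50 after the start of the gene in GRCm38.p6, are shown because their levels moved together across the libraries while their start regions differ. Capitals mark E-boxes, the sites CANNTG bound by basic helix-loop-helix factors, searched on both strands, on which this motif reads the same. The Pax1 window is chr2:147364744-147365043 on the plus strand and the Pax9 window chr12:56695221-56695520 on the plus strand.
Pax1: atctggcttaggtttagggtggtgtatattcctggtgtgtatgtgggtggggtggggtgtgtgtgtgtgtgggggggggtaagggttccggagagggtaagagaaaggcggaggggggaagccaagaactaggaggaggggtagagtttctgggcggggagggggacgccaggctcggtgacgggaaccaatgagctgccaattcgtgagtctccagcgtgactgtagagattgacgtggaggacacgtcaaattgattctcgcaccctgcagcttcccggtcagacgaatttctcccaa
Pax9: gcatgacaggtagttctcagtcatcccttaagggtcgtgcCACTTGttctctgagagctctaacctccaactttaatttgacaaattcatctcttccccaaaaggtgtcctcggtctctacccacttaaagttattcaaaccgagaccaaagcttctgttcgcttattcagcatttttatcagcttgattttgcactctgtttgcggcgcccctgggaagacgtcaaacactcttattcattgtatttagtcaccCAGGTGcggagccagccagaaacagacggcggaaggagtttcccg
The Pax1 window held no E-box, and the Pax9 window held CACTTG starting 210 bases before the start and CAGGTG just after it. Promoter windows were found for 6 of the 10 members, and of these 4 held an E-box, against 72.31% of the 32851 windows of all genes, so that the motif is common in windows of this length. No window was matched for Meox1, Foxc2, Tcf15 and Pax3.

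Pax1 was measured at 67.3, 65.4 and 69.9 RPM in E9 AoD and at 300, 360 and 236 RPM in E10 AoD. It was at 6.04, 4.59 and 3.07 RPM in E9 AoV, at 4.98, 4.25 and 5.05 RPM in E10 AoV and at 11.0, 11.6 and 6.39 RPM in E10 UGR. The dorsal domains were thus far above the other groups at both stages, and the neighbours E10 AoV and E9 AoV overlapped. Pax9 followed the same course at a lower level, with 16.8, 20.8 and 18.4 RPM in E9 AoD and 78.9, 84.1 and 65.7 RPM in E10 AoD. In E9 AoV it was at 3.17, 2.98 and 2.66 RPM, in E10 AoV at 1.91, 1.75 and 2.25 RPM and in E10 UGR at 3.24, 3.10 and 2.29 RPM. Only E9 AoV and E10 UGR overlapped among neighbours in the order of its levels. A non-coding gene antisense to Pax1, AI646519 (listed as AL805918.4), shares 59 exon bases with it, and the opposite-strand gene Slc25a21 shares 189 exon bases with Pax9. The library kit does not mark strand, so reads in these stretches cannot be told apart. AL805918.4 was at 3.77 to 4.75 RPM and Slc25a21 at 8.55 to 9.58 RPM in E10 AoD, both far below their partners there, but outside the dorsal domains Slc25a21 was as high as Pax9 or higher. It was at 2.23 to 5.77 RPM in E9 AoV, which overlaps Pax9, and above it in E10 AoV (2.63 to 3.29 RPM) and E10 UGR (3.66 to 5.03 RPM).

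Nkx3-2 (ENSMUSG00000049691, chromosome 5, 42152404 to 42155735, minus strand), a homeobox gene downstream of Pax1 and Pax9 in the sclerotome that is also known in the mesenchyme around the gut, had a pattern of its own. It was at 2.46, 3.04 and 2.84 RPM in E9 AoD, 6.97, 8.35 and 7.37 RPM in E9 AoV and 8.69, 9.91 and 5.85 RPM in E10 AoD. In E10 AoV it was at 4.07, 4.45 and 4.52 RPM, and in E10 UGR at 0.148, 0.185 and 0.0563 RPM. Of the 10 genes it was the only one with a higher level in the ventral than in the dorsal domain at E9.5, and E9 AoV and E10 AoD overlapped at the top of its order. The values in E10 UGR correspond to about 5, 9 and 2 reads, so that the ridges were close to the limit of detection for this gene and the size of a fold against them depends on the pseudocount.

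Meox1 (ENSMUSG00000001493, chromosome 11, 101738824 to 101755688, minus strand) and Meox2 (ENSMUSG00000036144, chromosome 12, 37835127 to 37908372, plus strand) encode homeobox factors of the early somite. Meox1 was at 306, 306 and 270 RPM in E9 AoD, 209, 209 and 220 RPM in E10 AoD and 79.8, 102 and 72.4 RPM in E10 UGR. It was at 57.3, 40.6 and 47.1 RPM in E9 AoV and at 24.3, 20.5 and 25.5 RPM in E10 AoV. It was the member for which no neighbouring groups in the order overlapped. Meox2 stood at 29.4, 30.5 and 34.1 RPM in E9 AoD and 23.9, 25.0 and 23.7 RPM in E10 AoD. In E10 UGR it was at 5.66, 7.03 and 4.51 RPM, in E9 AoV at 5.97, 3.55 and 3.42 RPM and in E10 AoV at 1.79, 1.71 and 1.82 RPM. The order of the groups was that of Meox1, with an overlap between E10 UGR and E9 AoV.

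Tcf15 (ENSMUSG00000068079, chromosome 2, 151969297 to 151974833, plus strand) encodes paraxis, a basic helix-loop-helix factor needed for the epithelial form of somites. It was at 35.1, 36.0 and 42.7 RPM in E9 AoD, 25.0, 32.3 and 23.7 RPM in E10 AoD and 11.7, 13.2 and 9.43 RPM in E10 UGR. The ventral domains overlapped at the bottom, with 6.36, 4.20 and 5.99 RPM in E9 AoV and 5.32, 5.60 and 5.68 RPM in E10 AoV. Foxc2 (ENSMUSG00000046714, chromosome 8, 123640071 to 123642792, plus strand), a forkhead factor known in paraxial mesoderm and also in kidney mesenchyme and vessels, was the member with the smallest spread over groups, with the highest group mean 4.71 times the lowest. It was at 81.8, 95 and 72.7 RPM in E9 AoD, 29.1, 22.3 and 26.3 RPM in E9 AoV and 121, 131 and 114 RPM in E10 AoD. In E10 AoV it was at 86.9, 87.1 and 85.3 RPM and in E10 UGR at 76.0, 74.1 and 74.0 RPM. E9 AoV alone stood clearly below the rest, and E9 AoD overlapped with both E10 AoV and E10 UGR.

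Pax3 (ENSMUSG00000004872, chromosome 1, 78097842 to 78193709, minus strand), a paired-box factor of the dermomyotome that is also known in dorsal neural tube and neural crest, was at 57.7, 56.0 and 88.6 RPM in E9 AoD. In E10 AoD it was at 7.40, 9.71 and 10.2 RPM and in E10 UGR at 10, 13.2 and 5.94 RPM, which overlapped. In E9 AoV it was at 6.66, 4.20 and 7.27 RPM, below E10 AoD and overlapping E10 UGR, and in E10 AoV at 1.87, 0.742 and 1.30 RPM, below every other group.

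Myf5 (ENSMUSG00000000435, chromosome 10, 106919964 to 106923190, minus strand) is the first muscle regulatory factor switched on in the mouse myotome, and Myog (ENSMUSG00000026459, chromosome 1, 136186581 to 136189124, plus strand) encodes myogenin, which drives the terminal differentiation of muscle cells. Myf5 lies 6726 bases from Myf6, another gene of this family. Their RefSeq windows in GRCm38.p6 are shown because both genes are muscle regulators of 1 family, and their levels came apart with stage. The Myf5 window is chr10:107486085-107486384 on the minus strand and the Myog window chr1:134289754-134290053 on the plus strand, with E-boxes in capitals as before.
Myf5: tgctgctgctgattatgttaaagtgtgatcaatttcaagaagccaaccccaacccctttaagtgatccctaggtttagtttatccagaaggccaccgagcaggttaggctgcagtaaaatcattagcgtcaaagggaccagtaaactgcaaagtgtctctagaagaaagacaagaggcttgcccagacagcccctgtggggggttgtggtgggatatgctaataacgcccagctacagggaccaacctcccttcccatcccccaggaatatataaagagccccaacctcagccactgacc
Myog: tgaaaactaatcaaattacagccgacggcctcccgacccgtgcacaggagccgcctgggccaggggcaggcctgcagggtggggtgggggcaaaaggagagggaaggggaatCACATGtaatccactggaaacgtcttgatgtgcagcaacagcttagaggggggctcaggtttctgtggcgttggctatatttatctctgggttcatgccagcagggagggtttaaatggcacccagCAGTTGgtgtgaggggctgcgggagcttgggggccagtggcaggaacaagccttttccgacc
The Myog window held CACATG 138 bases and CAGTTG 12 bases before the start, and the Myf5 window held no E-box. A match of these letters is a description of the window and shows no binding.

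Myf5 was at 6.98, 6.18 and 8.08 RPM in E9 AoD, 2.31, 5.34 and 2.82 RPM in E10 AoD and 2.40, 4.03 and 1.66 RPM in E10 UGR. It was at 0.798, 0.464 and 0.547 RPM in E9 AoV and at 0.104, 0.205 and 0.303 RPM in E10 AoV, where the values stand for about 4, 8 and 13 reads. Myf5 was therefore highest in E9 AoD, with E10 AoD and E10 UGR overlapping. Myog was at 14.9, 14.0 and 13.4 RPM in E9 AoD, 18.0, 29.9 and 23.8 RPM in E10 AoD and 26.1, 39.0 and 14.0 RPM in E10 UGR. The ventral domains held 0.889, 0.441 and 0.523 RPM at E9.5 and 2.21, 1.30 and 1.56 RPM at E10.5. Myog was the only member with its highest mean in E10 UGR, though the 3 ridge libraries ranged so widely that they spanned all those of E10 AoD.

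At E9.5 the dorsal domain was compared with the ventral domain to ask how the genes are placed along the axis before the ventral aorta gains its support for stem cells. In E9 AoV 9 of the 10 members were called lower and 1, Nkx3-2, higher than in E9 AoD, where 3.47% of all tested genes were called lower and 8.32% higher (the higher ones were 70.6% of all calls, and 59.4% under quantile scaling). The median log2 fold change of the members was -2.83, against 0.02 for all tested genes. Myog differed most, at -4.36 on the log2 scale (SE 0.315, adjusted p = 4.61e-08, limma), followed by Pax1 (-3.91, SE 0.232), Pax3 (-3.46, SE 0.322) and Myf5 (-3.37, SE 0.341). Meox2, Tcf15, Pax9 and Meox1 lay between -2.88 and -2.61, and Foxc2 was lower by the smallest amount, with -1.68 (SE 0.0942, adjusted p = 3.99e-09, limma). Nkx3-2 was higher in the ventral domain by 1.41 (SE 0.209, adjusted p = 5.79e-05, limma).

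Other genes of the somite were mostly dorsal at E9.5 too, with an exception in contractile genes. Of 11 sclerotome genes 6 were called lower in E9 AoV and none higher, among them Uncx, a homeobox gene of the caudal sclerotome, with -3.26. Of 11 dermomyotome and migrating precursor genes 7 were lower, led by Pax7 (-4.65) and Dmrt2 (-4.02), and 1 higher, Alx4 (1.07), named after its value was seen. Of 10 genes of the presomitic mesoderm and segmentation 7 were lower, with Lfng at -2.59 and Dll3 at -2.43. Tbx6 (-0.73), Msgn1 (-0.28) and Ripply1 (0.13) were not called. The neural tube list summed to 199 to 416 RPM in E9 AoD and 19.4 to 24.8 RPM in E9 AoV. Its part in the presomitic count was not tested. Among 21 tested genes of muscle differentiation 7 were lower, with Myh3 (embryonic myosin heavy chain) at -4.01 and Myf6 at -3.31, and 5 were higher. The 5 were Myl4 (2.85), Msc (2.67), Tnni1 (1.89), Tnnc1 and Actc1, of which all but Myl4 were named after their values were seen. Myl4, Tnni1, Tnnc1 and Actc1 are contractile genes also used by the embryonic heart. The heart muscle list summed to 45.98 to 75.5 RPM in E9 AoV and 2.32 to 5.82 RPM in E9 AoD, with 4 of its 4 tested genes called higher in E9 AoV, and its part in these values was not tested.

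**Figure D2:**
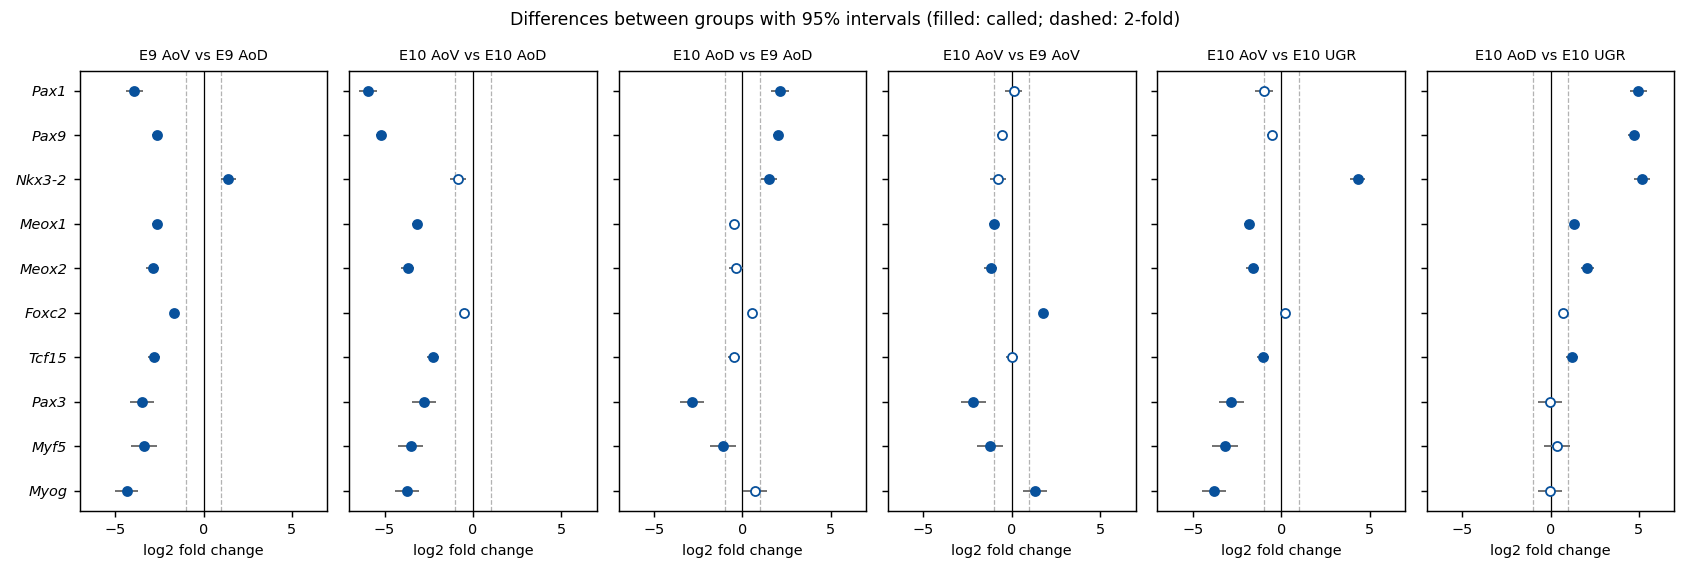
Log2 fold changes (horizontal axis) of the 10 genes (rows) in 6 comparisons of groups, with 95% intervals, filled points for called genes and dashed lines at a 2-fold difference. At both stages most members lay far to the ventral-low side, and in the comparison of dorsal aorta and urogenital ridges Pax3, Myf5 and Myog lay near 0.

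At E10.5, 8 of the 10 members were called lower in E10 AoV than in E10 AoD and none higher, against 4.29% of all tested genes called lower and 5.81% higher. The median log2 fold change of the members was -3.35, and that of all tested genes 0.02. Pax1 differed by -5.93 (SE 0.232) and Pax9 by -5.20 (SE 0.139, adjusted p = 3.48e-12, limma), Myog by -3.75, Meox2 by -3.70, Myf5 by -3.53 and Meox1 by -3.18. Pax3 (-2.78, SE 0.322) and Tcf15 (-2.25, SE 0.157) followed. Nkx3-2 (-0.86, adjusted p = 0.00471, limma) and Foxc2 (-0.49, adjusted p = 0.000719, limma) passed the adjusted p and not the fold threshold. Without E10 AoD replicate 3, Nkx3-2 was at -1.08 and called.

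The wider somite lists differed in how many of their genes were lower in the ventral domain at E10.5. Of the sclerotome genes 6 of 11 were lower and none higher, among them the cartilage matrix genes Acan (-3.83) and Col2a1 (-3.59), and Uncx (-3.29). Col2a1 was at 856 to 995 RPM in E10 AoD and 73.8 to 84.0 RPM in E10 AoV. Of the dermomyotome genes 5 of 11 were lower, with Pax7 (-2.98) and Dmrt2 (-2.61) first. Of 21 muscle differentiation genes 15 were lower, with Myh3 (-3.94), Myl1 (-3.74), Chrna1 (-3.40) and Ttn (-3.26) first. The 2 that were higher, Tnni1 (1.74) and Des, were named after their values were seen. Of 10 presomitic genes 2 were lower, Dll3 (-2.87) and Dll1 (-1.50), and the median of that list was -0.26, with 4 of its genes at 3 reads or fewer in a group.

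Between E9.5 and E10.5 the dorsal domain changed in a different direction for sclerotome and for dermomyotome genes. In E10 AoD 3 members were called higher and 2 lower than in E9 AoD, where 8.6% of all tested genes were called higher and 4.0% lower. Pax1 rose by 2.12 (SE 0.232, adjusted p = 2.17e-06, limma), Pax9 by 2.02 (SE 0.139, adjusted p = 2.14e-08, limma) and Nkx3-2 by 1.49 (SE 0.209, adjusted p = 2.53e-05, limma). Pax3 fell by 2.86 (SE 0.322, adjusted p = 2.91e-06, limma) and Myf5 by 1.08 (SE 0.341, adjusted p = 0.0136, limma). The call of Myf5 depended on single libraries, with -0.98 without E9 AoD replicate 3, -0.84 (adjusted p = 0.0687, limma) without E10 AoD replicate 1 and -0.98 without E10 AoD replicate 3. It was not called with a pseudocount of 1 RPM either (-0.90).

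The other 5 members were not called in the dorsal domain. Myog was at 0.73 (SE 0.315, adjusted p = 0.0607, limma), with its 3 E10 AoD libraries above the 3 of E9 AoD. Foxc2 (0.56, adjusted p = 0.000138, limma), Tcf15 (-0.50), Meox1 (-0.47) and Meox2 (-0.37) differed by less than 2-fold. The change was thus uneven among the members. Within single libraries the ratio of Pax1 to Meox1, in RPM, went from 0.214 to 0.259 in E9 AoD to 1.07 to 1.72 in E10 AoD, and that of Pax3 to Pax1 from 0.856 to 1.27 down to 0.0247 to 0.0432. The neural tube list, which marks a tissue where Pax3 is also known, summed to 262, 199 and 416 RPM in E9 AoD and 55.1 to 86.4 RPM in E10 AoD. Its highest library, E9 AoD replicate 3, was also the highest for Pax3 (88.6 RPM), and 7 of its 9 genes were called lower in E10 AoD. Its part in the change of Pax3 was not tested.

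The wider lists also changed in different directions in the dorsal domain. Of the sclerotome genes 7 of 11 rose and 1 fell. Acan rose by 3.98, from 0.898 to 1.43 RPM to 16.8 to 27.3 RPM, and Col2a1, Scx and Sox5 followed. Of the muscle differentiation genes 14 of 21 rose and none fell, with Actc1 (2.39), Myl1 (2.19), Myh8 (1.99) and Tnnc1 (1.94) first. The smooth muscle list moved with them, from 63.1 to 123 RPM in E9 AoD to 527 to 689 RPM in E10 AoD, and 4 of its 4 genes were called higher (Acta2 by 3.10, Tagln by 2.19, Myh11 by 4.76 and Cnn1 by 2.95). Its part in the muscle differentiation count was not tested. Of the dermomyotome genes 6 of 11 fell and none rose, among them Lbx1 (-3.26), Dmrt2 and Pax7 (-1.35). Of the presomitic genes 9 of 10 fell, Tbx6 by 2.77 and Ripply2 by 2.29. Mesp2, which sets segment borders, went from 1.16 to 2.61 RPM in E9 AoD to 0.0237 to 0.0753 RPM in E10 AoD, the level of 3 reads or fewer. Mesp1, at 0.172 to 0.618 RPM in E9 AoD, was listed at 0 in all 3 libraries of E10 AoD. The median log2 fold changes of these lists were 1.20 for sclerotome, 1.39 for muscle differentiation, -1.15 for dermomyotome and -2.17 for presomitic genes (-2.22 with genes at the detection limit held at their bound), against -0.002 for all tested genes.

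In the ventral domain 2 members were called higher and 4 lower at E10.5 than at E9.5, where 6.04% of all tested genes were called higher and 4.99% lower. Foxc2 rose by 1.74 (SE 0.0942, adjusted p = 3.08e-09, limma) and Myog by 1.34 (SE 0.315, adjusted p = 0.00296, limma). Pax3 fell by 2.18 (SE 0.322, adjusted p = 6.41e-05, limma), Myf5 by 1.24 (SE 0.341, adjusted p = 0.00822, limma), Meox2 by 1.19 (SE 0.178) and Meox1 by 1.03 (SE 0.128). Nkx3-2 (-0.78) and Pax9 (-0.56) were lower by less than 2-fold. Pax1 (0.11, 95% interval -0.39 to 0.60) and Tcf15 (0.03, -0.31 to 0.36) did not differ beyond their spread.

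Several of these ventral calls lie close to the thresholds. Meox1 was at -0.90 without E9 AoV replicate 1 and -0.94 without E10 AoV replicate 2. Meox2 was at -0.94 without E9 AoV replicate 1, and Myf5 at -0.98 without E10 AoV replicate 1, none of them called. With a pseudocount of 1 RPM only 3 members were called, since Meox2 was at -0.91, Myf5 at -0.41 and Myog at 0.73. Myf5 and Myog were at most 0.798 and 2.21 RPM in the ventral libraries, and the calls for both rest on few reads.

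Among the wider lists in the ventral domain 4 of 11 sclerotome genes rose, Foxc1 by 2.11, Tbx18 by 1.95, Sox9 by 1.83 and Acan by 1.80, and none fell. The members Pax1, Pax9 and Nkx3-2 did not rise with them. Tbx18 was at 61.6 to 66.4 RPM in E10 AoV, above its 32.9 to 35.6 RPM in E10 AoD. Of the dermomyotome genes 4 of 11 fell, among them Alx4 by 2.82, En1 by 2.06 and Lbx1 by 1.56. Of the muscle differentiation genes 5 of 21 fell, led by Myl4 (-3.24) and Msc (-2.44), and 3 were higher, Myh3 (1.91), Mef2c (1.41) and Myod1, named after their values were seen. Myod1 was at 3 reads or fewer in every E9 AoV library and at 0.163 to 0.230 RPM in E10 AoV. The heart muscle list went from 45.98 to 75.5 RPM in E9 AoV to 12.1 to 13.7 RPM in E10 AoV. Of its 4 tested genes 2 were called lower, and its part in the muscle differentiation counts was not tested. Of the presomitic genes 6 of 10 fell, Ripply1 by 2.92, but with a pseudocount of 1 RPM only 1 was called.

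The change with stage in AoV minus that in AoD, the interaction of stage and position, asks whether dorsal and ventral domains changed differently. It was called for 4 members, negative for Pax9 (-2.58, SE 0.196), Nkx3-2 (-2.27, SE 0.296) and Pax1 (-2.02, SE 0.329), and positive for Foxc2 (1.19, SE 0.133), with adjusted p of at most 0.000309 (limma). Of all tested genes 6.89% were called negative and 4.12% positive. All 3 genes with negative values rose in the dorsal domain and did not rise in the ventral domain. There Pax1 was at 0.11, while Pax9 (-0.56) and Nkx3-2 (-0.78) were lower by less than 2-fold, which is part of their values. The positive value of Foxc2 came from a larger increase in the ventral domain. Pax3, which fell in both domains, had an interaction of 0.68 (95% interval -0.29 to 1.66, adjusted p = 0.307, limma). It was called with a pseudocount of 1 RPM (1.13, adjusted p = 0.0335, limma). For Meox2 (-0.82, adjusted p = 0.0241, limma) and Meox1 (-0.57, adjusted p = 0.0291, limma) the interaction passed the adjusted p and not the fold threshold. Among the alternative fits the adjusted p (limma) reached 0.0719 for Meox2 and 0.0772 for Meox1. For Tcf15 (0.52), Myog (0.61) and Myf5 (-0.15) the interaction was not called.

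In the lists the interaction was called for 6 of 11 sclerotome genes, 5 of them negative, among them Acan (-2.19), Sox5 (-2.11) and Col2a1 (-1.54), and 1 positive. It was negative for 9 of 21 muscle differentiation genes, led by Myl4 (-4.74) and Tnnc1, and positive for none. It was also negative for 2 of 4 tested heart muscle genes and 4 of 4 smooth muscle genes. The part of these lists in the muscle differentiation count was not tested. Of 11 dermomyotome genes 3 were positive, Pax7 (1.67), Sim1 (1.48) and Dmrt2 (1.41), and Alx4 was negative (-2.01). That count of 4 was 2 without E9 AoD replicate 3 or without E10 AoD replicate 1. Of 10 presomitic genes 3 were positive, Mesp2, Lfng (2.08) and Mesp1, and 5 without E9 AoV replicate 3.

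The urogenital ridges, which flank the aorta, gave a different mixture from either aortic domain. E10 AoD exceeded E10 UGR for 6 members and was below it for none by the call, where 4.76% of all tested genes were called higher and 6.56% lower. Nkx3-2 (5.18, SE 0.209), Pax1 (4.96, SE 0.232) and Pax9 (4.69, SE 0.139, adjusted p = 7.69e-12, limma) differed most, followed by Meox2 (2.08), Meox1 (1.34) and Tcf15 (1.23). The factors of the muscle lineage were not called. Myog was at -0.05 (95% interval -0.73 to 0.62), Pax3 at -0.03 (-0.72 to 0.66) and Myf5 at 0.36 (-0.37 to 1.09). These intervals leave room for differences of up to 1.09 on the log2 scale. Foxc2 was higher in E10 AoD by 0.70 (adjusted p = 2.48e-05, limma), under the fold threshold. As a ratio within libraries, Myog was 2.19 to 3.36 times Pax1 in E10 UGR and 0.060 to 0.101 times Pax1 in E10 AoD, in RPM.

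**Figure D3:**
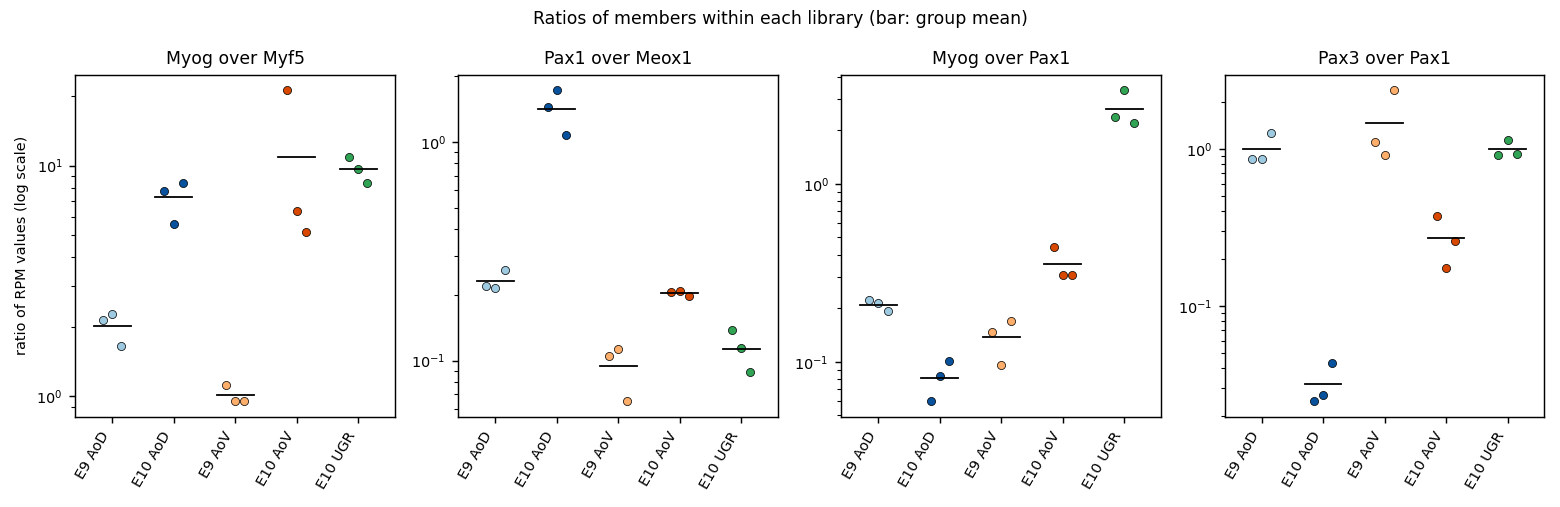
Ratios of 2 members within each library (vertical axis, log scale of RPM over RPM) by group, with points for libraries and bars for means of 3. Myog over Myf5 lay between 1.66 and 2.27 in E9 AoD and above 5 in all 9 libraries of E10.5, and Myog over Pax1 was highest in E10 UGR.

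The balance of the muscle factors moved with stage in each domain measured at both. The ratio of Myog to Myf5 in RPM was 1.66 to 2.27 in E9 AoD and 5.60 to 8.44 in E10 AoD, and 0.950 to 1.11 in E9 AoV and 5.15 to 21.3 in E10 AoV. In E10 UGR it was 8.43 to 10.9. The highest value, in E10 AoV replicate 1, rests on about 4 reads of Myf5. The ratio of Pax1 to Pax9 was 3.14 to 4.01 in E9 AoD and 3.59 to 4.28 in E10 AoD, which overlap, but 1.15 to 1.91 in E9 AoV and 2.24 to 2.61 in E10 AoV, which do not. That of Meox1 to Meox2 overlapped between stages in both domains, with 7.92 to 10.4 and 8.36 to 9.28 in the dorsal and 9.60 to 13.8 and 12 to 14 in the ventral domain.

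Against the ventral domain the ridges were richer in most members. In E10 AoV 6 members were called lower than in E10 UGR and 1 higher, where 3.73% of all tested genes were called lower and 3.84% higher. Myf5 (-3.17, SE 0.341), Pax3 (-2.82, SE 0.322), Meox1 (-1.84, SE 0.128) and Meox2 (-1.62, SE 0.178) were lower, as was Myog (-3.80, SE 0.315), and Tcf15 was at -1.02 (SE 0.157). The call of Tcf15 was lost without E10 AoV replicate 1 or E10 UGR replicate 1 or 2 (-0.91 without the last). It was also lost under either other scaling (-0.99) and with a pseudocount of 1 RPM (-0.92). Nkx3-2 was higher in E10 AoV, with a fitted difference of 4.32 (SE 0.209). Pax1 was at -0.96 (adjusted p = 0.00569, limma) and was called without E10 AoV replicate 3 (-1.01) or E10 UGR replicate 3 (-1.23). Pax9 (-0.52) and Foxc2 (0.21) differed by less than 2-fold. The comparisons of E10 AoV with E10 AoD, E9 AoV and E10 UGR share the E10 AoV libraries, and those with E10 UGR share the ridge libraries.

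Between E10 AoD and E10 UGR 6 of 11 sclerotome genes were higher in E10 AoD, among them Acan by 3.17, Col2a1 by 3.0 and Twist1 by 1.66, and none lower. Of 21 muscle differentiation genes 5 were higher in E10 AoD, Actc1 (2.02), Acta1 (1.31), Myl4 (1.24), Msc and Itga7, the last named after its value was seen. That count was 3 without E10 AoD replicate 2 and 9 without E10 UGR replicate 2. Of 11 dermomyotome genes En1 (2.56) and Pax7 (1.13) were higher and Sim1 (-2.49), Alx4 (-1.97) and Met (-1.36) lower in E10 AoD, Pax7 named after its value was seen. Of 10 presomitic genes Dll3 (2.40) and Ripply1 (1.56) were higher, and Mesp2 was lower, at 3 reads or fewer in E10 AoD and 0.237 to 0.366 RPM in E10 UGR. Between E10 AoV and E10 UGR 13 of 21 muscle differentiation genes were lower in E10 AoV, led by Myod1 (-3.19), Myl1 (-3.05), Myh3 (-2.86) and Myf6 (-2.80), and 3 were higher. The 3 were Actc1, Msc and Tnni1, named after their values were seen. Of the dermomyotome genes 8 of 11 were lower, with Sim1 (-2.99), Alx4 (-2.91) and Dmrt2 (-2.54) first. Over the 5 groups Sim1, Alx4 and Met had their highest means in E10 UGR (54.1, 49.2 and 34.0 RPM). All other genes of that list had theirs in E9 AoD, among them Dmrt2 (38.6 RPM) and Pax7 (8.46 RPM). The tissue in which Sim1, Alx4 and Met were expressed was not tested. Of the sclerotome genes 2 of 11 were higher in E10 AoV, among them Tbx18 (1.74), and Uncx (-2.38) was lower, and of the presomitic genes Dll1 (-1.51) was lower.

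Within some groups, the members tended to be high or low in the same libraries. Replicate 3 of E10 UGR was the lowest of its group for all 10 members, and replicate 2 was the highest for 8. For Foxc2 the ridge libraries hardly differed (76.0, 74.1 and 74.0 RPM). E9 AoD had no such library, since replicates 1, 2 and 3 were highest for 2, 3 and 5 members and lowest for 4, 3 and 3. In E10 AoD replicate 2 was the highest for 8 members, and in E9 AoV replicate 1 was. The muscle differentiation list summed to 239, 344 and 185 RPM over the E10 UGR libraries, in the same order as Myog, while the nephric and urogenital list summed to 561, 528 and 578 RPM, in the opposite order. Depth, at 35.5 M reads in replicate 3, 48.6 M in replicate 2 and 33.8 M in replicate 1, was lowest in replicate 1. Whether these lists or depth have a part in the order of the libraries was not tested.

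**Figure D4:**
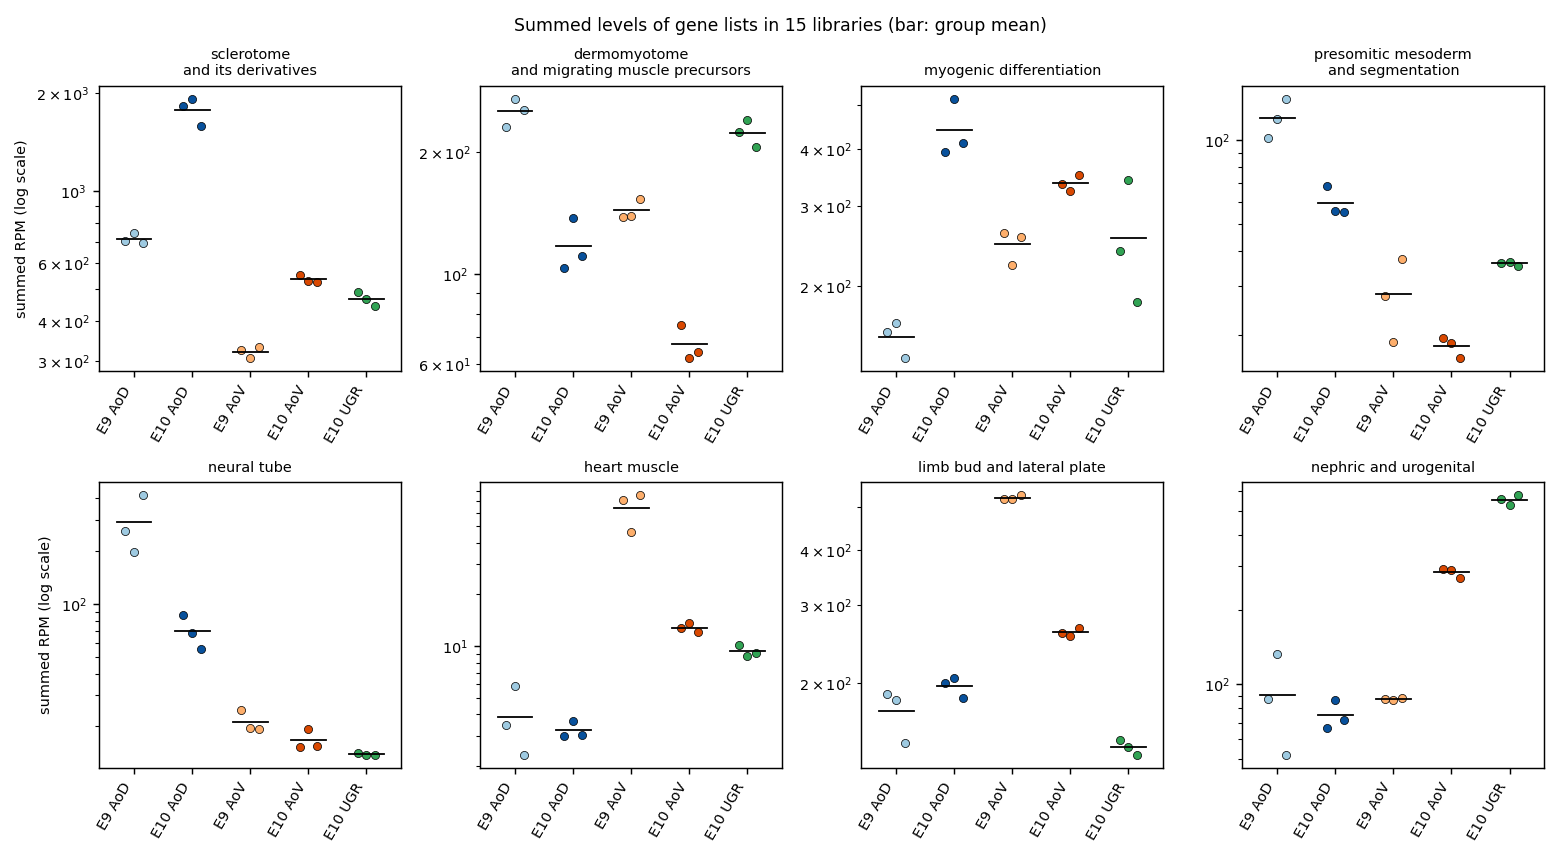
Summed RPM of 4 somite gene lists (upper row) and 4 lists of other tissues (lower row) in the 15 libraries, on a log scale, with bars for group means of 3. The sclerotome list peaked in E10 AoD (1583 to 1921 RPM), the neural tube list in E9 AoD, the heart muscle and limb lists in E9 AoV and the nephric list in E10 UGR.

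Markers of neighbouring tissues moved with the same groups, and their part in the results was not tested. The notochord and floor plate list, the source of signals for sclerotome, summed to 145 to 168 RPM in E10 AoD, 61.5 to 70.4 RPM in E9 AoD, 54.0 to 67.8 RPM in E9 AoV and at most 3.11 RPM in E10 AoV and E10 UGR, with 3 of 4 genes called lower in E10 AoV than in E10 AoD. Its gene Noto was at 3 reads or fewer in E10 AoD and E10 AoV, and Foxa2 in E10 UGR. Shh was the largest part of the E9.5 sums, at 34.4 to 43.8 RPM in E9 AoD and 36.1 to 51.8 RPM in E9 AoV. Only 1 of the 4 genes, T, was called lower in E9 AoV than in E9 AoD (3.85 to 7.77 against 14.1 to 16.6 RPM). The neural crest list was at 207 to 223 RPM in E10 AoD and at most 93.8 RPM in every other group, with 5 of 5 genes called lower in E10 AoV than in E10 AoD. The neural tube list summed to at most 24.8 RPM in E9 AoV, E10 AoV and E10 UGR, with Wnt1 and Neurog1 at 3 reads or fewer in each. The limb bud and lateral plate list was at 522 to 532 RPM in E9 AoV, against 147 to 189 RPM in E9 AoD, 186 to 206 RPM in E10 AoD, 256 to 267 RPM in E10 AoV and 138 to 149 RPM in E10 UGR, with 6 of 8 genes called higher in E9 AoV than in E9 AoD. The gut and pharyngeal endoderm list, which marks tissue where Pax1 and Pax9 are also known, was at 123 to 150 RPM in E9 AoV, 22.8 to 28.3 RPM in E9 AoD, 53.6 to 55.1 RPM in E10 UGR and 11.7 to 16.3 RPM in the other groups. Its genes Nkx2-1 and Gcm2 were at 3 reads or fewer in every group but E9 AoV, where only Gcm2 was.

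The lists of vessel and kidney markers were summed in the same way. The smooth muscle list was at 527 to 748 RPM in both E10.5 aortic domains, 430 to 446 RPM in E9 AoV, 63.1 to 123 RPM in E9 AoD and 45.4 to 71.5 RPM in E10 UGR, with a median log2 fold change of 0.23 between E10 AoV and E10 AoD. The endothelium list was at 249 to 333 RPM in E9 AoD and 396 to 565 RPM in the other groups, with a median of -0.02 between E10 AoV and E10 AoD. The nephric and urogenital list was at 528 to 578 RPM in E10 UGR, 268 to 293 RPM in E10 AoV and 51.8 to 133 RPM in the other groups. In E10 AoD 6 of 6 of its genes were called lower than in E10 UGR. Most of its sum was Wt1 in E10 UGR (350 to 382 RPM) and in E10 AoV (214 to 234 RPM). In E10 AoV 4 of 6 genes were called lower than in E10 UGR, among them Pax2 (-2.59), Pax8 (-2.78) and Lhx1 (-3.16). Wt1 (-0.71) was not called. The heart muscle list was at most 13.7 RPM outside E9 AoV. Endothelium genes were thus present in every group. Beside them the sum of the members was highest in the dorsal domains and that of the nephric genes in the ridges. Neither was confined there, since the members summed to 191 to 267 RPM in E10 UGR.

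Other genes followed single members closely over the 15 libraries, which fall into 5 groups and may share experiments, so that these correlations are descriptions. Of those named here Col2a1, Pax7, Dll1 and Dmrt2 are also in the somite lists. On log2(RPM + 0.1) the genes most like Pax1 were Gdap1 (Pearson r 0.985), Rgmb (0.981) and Col2a1 (0.978). Those most like Pax9 were Hmgn3 (0.975), the Pax1 antisense gene AL805918.4 (0.970) and Slc36a2 (0.968). Nkx3-2 was followed most closely by Vegfc (0.970), Cxxc4 (0.961) and Gnao1 (0.959). For Meox1 these were Spsb4 (0.979), 4631416L12Rik (0.974) and Metrn (0.969), and for Meox2 Lrig1 (0.987), Ntn1 (0.982) and Metrn (0.969). Foxc2 had Heyl (0.975), Sncaip (0.974) and Lrrc4 (0.972), and Tcf15 had Gpsm2 (0.975), Pax7 (0.974) and 6430704M03Rik (0.972). For Pax3 they were RP23-212C14.11 (0.969), Saal1 (0.969) and Dll1 (0.966), for Myf5 Tbx22 (0.965), E130201H02Rik (0.949) and Dmrt2 (0.946), and for Myog Tmem8c (0.981), Arpp21 (0.980) and Fgf6 (0.976). Tmem8c encodes myomaker, which is needed for the fusion of muscle cells, and Fgf6 is a fibroblast growth factor of muscle. Among the members themselves Meox1 with Meox2 (0.988) and Pax1 with Pax9 (0.985) were most alike, and Nkx3-2 with Myog least (-0.477).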

How the data were processed

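RNA was measured by sequencing in 15 libraries, 5 groups of 3. Per the study's methods, the authors pooled tissue of many embryos for each library, made TruSeq RNA libraries and sequenced 50-base single-end reads. They aligned these to NCBI37/mm9 with TopHat and Bowtie 0.12.3 and assigned reads to Ensembl genes with GeneProf, dividing reads that matched several genes. The deposited values are RPM, scaled by the authors to the reads assigned to genes and given to 3 significant digits. They are not scaled for gene length or between libraries, so that a very abundant gene can lower all others, and 10 genes took at most 5.58% of a library. The 12 deposited columns of the authors' own comparisons (log2 fold change and adjusted p-value from DESeq) were not used.

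Depth came from the step between low values. Whole reads were not recovered, because only 63.1% to 64.8% of low values were whole multiples. Genes that reached 0.5 RPM in any library were tested with limma 3.58.1 in R 4.3.3 on log2(RPM + 0.1), with 1 mean per group, all 15 libraries and an intensity trend. The pseudocount equals 3.38 to 4.86 reads, and fold changes of low genes are understated. The fit was tested on simulated data. Levels of 3 reads cover counting error only, since PCR reads are not independent molecules. The series description and the study's methods speak of separate experiments, the sample labels give only replicate numbers, and p-values measure the spread between these pools.

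Lengths and positions are from GENCODE on NCBIM37, in which 95.26% of all IDs were found. Promoter windows are from RefSeq on GRCm38.p6 and were not joined to positions of the other build. The members and lists were chosen with earlier results of these data known. All members were named in all groups and comparisons, of each of 4 somite lists up to 4 called genes per comparison with the largest differences, the 3 most alike genes of each member by Pearson r, and 9 lists of other tissues only by counts, sums and genes at the level of 3 reads. Some list genes that this rule would name are not reported here.

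Alternatives were pseudocounts of 1 and 0.02 RPM, no filter, TMM and quantile scaling, a fit of only the groups compared, a replicate block, and leaving out each library in turn.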

Additional observations from a re-analysis of the deposited data

Results flagged for a closer look

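For 4 of the 10 genes the stage change in the ventral domain differed from that in the dorsal domain, by limma's test of the interaction, and this is why they are listed here. The log2 difference between the changes, AoV minus AoD, was -2.58 for Pax9 (adjusted p = 3.19e-07), -2.27 for Nkx3-2 (adjusted p = 4.4e-05), -2.02 for Pax1 (adjusted p = 0.000309) and 1.19 for Foxc2 (adjusted p = 1.16e-05).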

How the results depend on the processing

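In all, 7 other settings and 15 fits that each left out 1 library gave 1540 values for the 10 genes, of which 1503 kept their direction and their side of the thresholds, 17 lost the call, 4 gained it and 16 changed sign. None of the 46 called values changed sign. The pseudocount of 1 RPM shrinks differences of low genes by its construction. With it 3 instead of 6 members were called between E10 AoV and E9 AoV. Over all tested genes it called 1104 instead of 2046 in that comparison, 1020 instead of 1874 for E10 AoV against E10 AoD and 1281 instead of 2337 for E10 AoD against E9 AoD. It called 1196 instead of 2187 for E9 AoV against E9 AoD, 735 instead of 1404 for E10 AoV against E10 UGR, 1143 instead of 2100 for E10 AoD against E10 UGR and 1174 instead of 2044 for the interaction. In the somite lists it called 2 instead of 4 dermomyotome and 1 instead of 6 presomitic genes between E10 AoV and E9 AoV. Presomitic counts with it were 5 instead of 9 for the dorsal stage change, 3 instead of 7 for E9 AoV against E9 AoD, and 1 instead of 3 both for E10 AoD against E10 UGR and for the interaction. A pseudocount of 0.02 RPM called 4 instead of 2 presomitic genes between E10 AoV and E10 AoD, a fit of only the groups compared 1 instead of 3 between E10 AoD and E10 UGR, and no filter 2 instead of 4 dermomyotome genes in the interaction. Sign changes were among values that were not called. Between E10 AoD and E10 UGR Pax3 was at 0.026 under TMM scaling and 0.057 under quantile scaling, and from -0.35 to 0.22 when single libraries were left out. Myog was at 0.008 and 0.007 under these scalings and from -0.45 to 0.29. Between E10 AoV and E9 AoV leaving out libraries gave -0.16 to 0.14 for Tcf15 and -0.15 to 0.33 for Pax1. The interaction of Myf5 was 0.49 with a pseudocount of 1 RPM and -0.40 to 0.19 when libraries were left out. Only for E9 AoV against E9 AoD did a scaling, quantile, move the median of all tested genes by over 0.1, by -0.115.

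The sources used here do not say whether equal replicate numbers mark 1 experiment. The libraries were therefore treated as unpaired, with a replicate block as an alternative. Deviations from group means of same-numbered libraries correlated with a median of 0.064 (-0.138 to 0.452 over 30 pairs, 11 over 0.1) and of differently numbered ones with a median of -0.034 (7 of 60 pairs over 0.1). That 11 of 15 libraries correlated best with their own number is a hint of pairing from the data, not from the design. With the replicate block the members called were the same in number in all 7 comparisons, and the genes called were 2045 instead of 2046 between E10 AoV and E9 AoV and 2067 instead of 2044 in the interaction. Depth limits Nkx3-2 in E10 UGR and Myf5 in E10 AoV, which rest on at most 13 reads a library.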
